A study of Mus musculus with 6 samples.

Results

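Spic, Spi1, Irf8, Maf, Nr1h3, Pparg, Rxra, Cebpb and Tfec are transcription factors that set or maintain the macrophage lineage, and their expression was compared between Bach2 knockout and wild-type red pulp macrophages of the mouse spleen. The 9 genes were chosen by symbol, through the RefSeq accession of each array probe, from 20018 genes with a named probe, and 11 probes carried them. The knockout group held 3 C57BL/6 mice lacking Bach2 and the wild-type group 3 C57BL/6 mice, all between 8 and 9 weeks of age, and each mouse gave 1 array with a single dye. Bach2 is a repressor that pairs with small Maf proteins and, with them, binds Maf recognition elements. The labels state neither how the Bach2 allele was made nor in which cells Bach2 was absent, and they name no surface marker of the flow-cytometry sort. All mice were male except wild-type mouse 3.

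PU.1, the product of Spi1, is the ETS factor on which the macrophage lineage depends, and its close relative Spi-C, the product of Spic, is induced by heme and is known to be needed for red pulp macrophages to form. IRF8 works beside PU.1 on shared elements, c-Maf helps to hold macrophages in the mature, non-dividing state, and C/EBPβ acts on inflammatory and wound-repair genes. LXRα (Nr1h3) and PPARγ (Pparg) are lipid-sensing nuclear receptors that bind DNA as heterodimers with RXRα (Rxra), and Tfec is a helix-loop-helix factor of the MiT family found mainly in macrophages.

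All 11 probes could be measured, and 10 of them were well above background on all 6 arrays. The level of each of the 9 genes, read from its brightest probe, lay below wild type in the knockout, by a median log2 difference of -0.35 and within a range of -0.64 for Spi1 to -0.03 for Cebpb. That median was -0.07 after quantile normalization, -0.05 without wild-type mouse 2 and -0.68 without wild-type mouse 1. None of these differences passed a test. Unadjusted p-values of the limma fit over 23032 probes ran between 0.193 and 0.958 for the 11 probes, and the Benjamini-Hochberg adjusted p was 0.9998 for each. The signs were not all kept when the arrays were scaled in another way: Irf8, Maf, Pparg and Cebpb lay above 0 after quantile normalization, and Pparg and Cebpb also after centring each array on its median.

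The shared direction has to be read against the other probes. Over all tested probes, 61.8% lay below 0 in the knockout and the median log2 difference was -0.12. Centring the arrays on their medians moved that median to 0.0024 and quantile normalization moved it to -0.03. Among the 3565 tested probes with a mean level of at least 4, a set chosen after its values were seen, 83.6% lay below 0 and the median was -0.25. For the same probes these values were 51.8% and -0.007 after quantile normalization, 70.0% and -0.13 after median centring, and 55.3% and -0.03 without knockout mouse 3. The 6 factors in that range, Spic, Irf8, Maf, Nr1h3, Pparg and Cebpb, had a median of -0.31. No probe passed an adjusted p of 0.05 in either direction (limma, 0.0% of 23032 called higher and 0.0% called lower), and 159 higher (0.69%) and 148 lower (0.643%) probes had an unadjusted p under 0.05. The genotypes did not overlap in 1 of the 11 probes, the brighter probe of Rxra, against 2.09% of all tested probes that lay lower in every knockout than in any wild-type mouse (0.898% of those at level 4 or more), 1.2% that lay higher and 3.29% in either direction.

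Levels are given as log2 of the processed signal minus the 75th percentile of the array, differences as knockout minus wild type, and errors as the SD over 3 mice or as the SE of the limma fit. Between 37.5% and 51.5% of spots on an array were well above background, and the 75th percentile itself was 1559.9, 1178.1 and 3209.4 in knockout mice 1, 2 and 3, against 1742.5, 1700.9 and 869.7 in wild-type mice 1, 2 and 3. Because the percentile is subtracted, an equal signal on 2 arrays gives a lower level on the array with the higher percentile. Every knockout array lay in row 2 of the slide and every wild-type array in row 1, and these cannot be told apart. A knockout and a wild-type mouse stood in each of the 3 array columns. Knockout mouse 3 and wild-type mouse 3, both in array column 3, share an animal tag whose meaning the labels do not state. Bach2 itself had levels of -2.42, -3.91 and -1.42 in the knockout mice and of -1.09, -0.22 and -1.54 in the wild-type mice. Knockout mouse 3 lay within the wild-type range, and the difference of -1.63 ± 0.70 had an unadjusted p of 0.0462 and an adjusted p of 0.9998 (limma). The labels do not say whether that probe lies in the deleted part of the gene, so it does not check the genotypes, and another Bach2 probe stayed below background throughout.

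**Figure D1:**
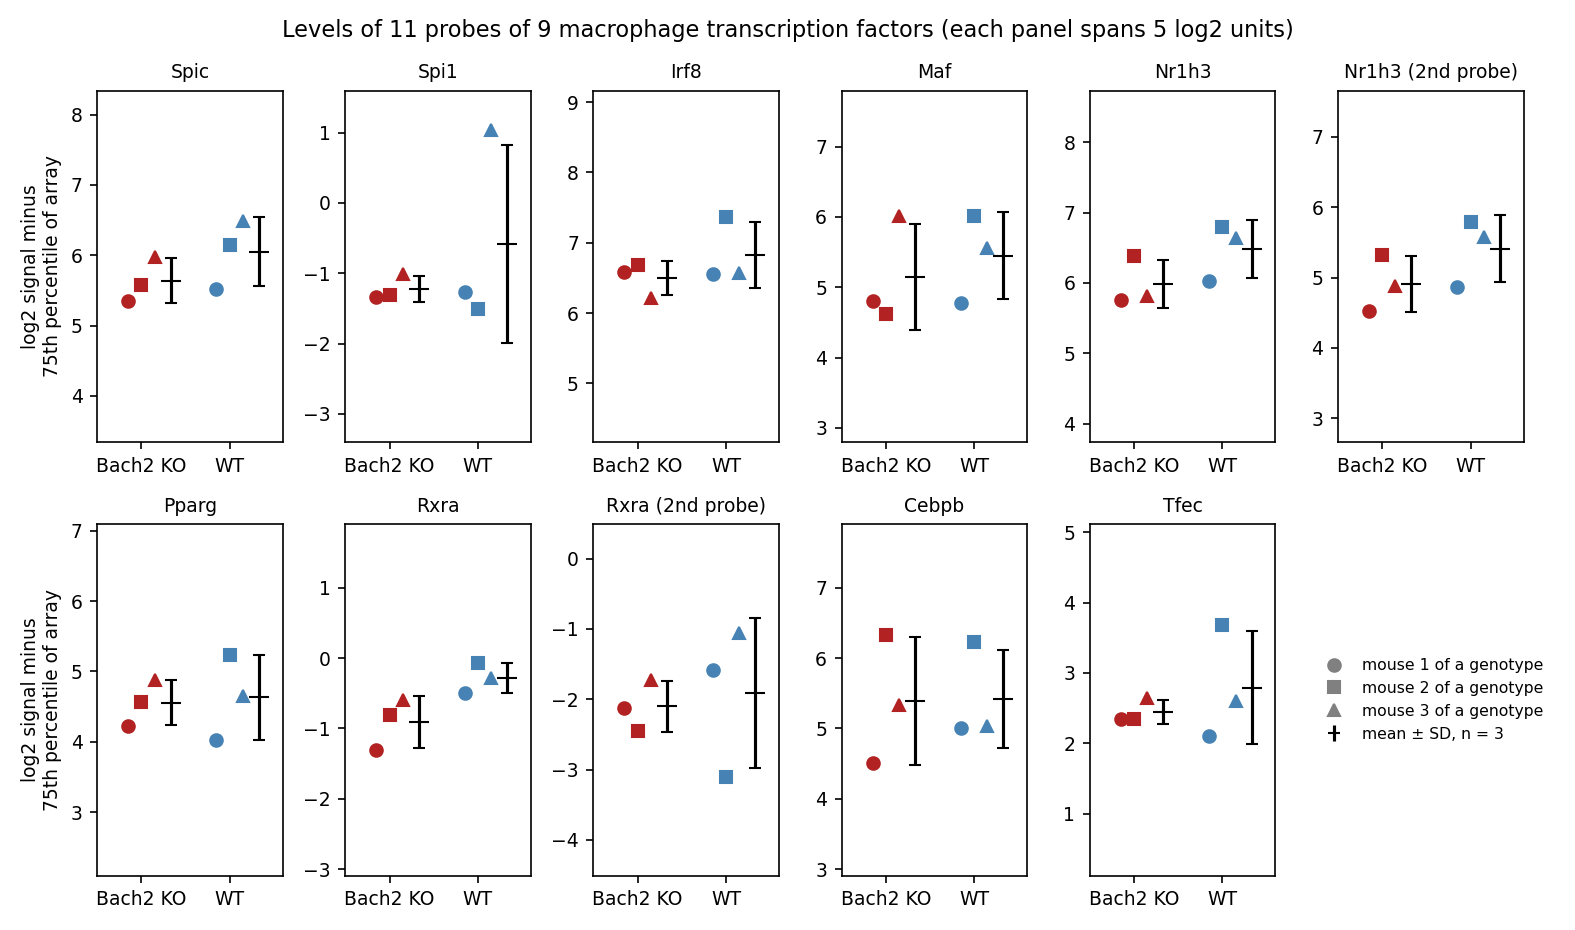
Level of each of the 11 probes by mouse, as log2 signal minus the 75th percentile of the array (vertical axis, each panel spanning the same number of log2 units). Symbols mark mice 1 to 3 of the Bach2 knockout (red) and wild type (blue), bars show the mean ± SD, and the 2 genotypes overlap in 10 of the 11 panels, the exception being the brighter Rxra probe, whose genotypes overlap too after median centring or quantile normalization.

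Of the lineage-defining ETS factors, Spic lay lower in the knockout than in wild type in each array column, and no test called it. The Spic probe had levels of 5.35, 5.57 and 5.98 in knockout mice 1, 2 and 3 and of 5.52, 6.14 and 6.49 in wild-type mice 1, 2 and 3. Wild-type mouse 1 lay inside the knockout range, and wild-type mice 2 and 3 lay above every knockout mouse. Spic averaged 5.63 ± 0.32 in the knockout and 6.05 ± 0.49 in wild type (SD, n = 3 each), a difference of -0.42 ± 0.46 (SE, limma unadjusted p = 0.392) with a 95% interval of -1.48 to 0.64. By array column, Spic differed by -0.18, -0.57 and -0.51. After quantile normalization it was -0.07.

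The promoter of Spic is shown because the ETS family, to which Spic and Spi1 belong, binds elements with the core GGAA. It runs from 250 bases before to 50 bases after the start of transcription (RefSeq, GRCm38.p6, chr10:88682974-88683273, minus strand, written 5′ to 3′), with each GGAA core, on either strand, in capitals.
Spic: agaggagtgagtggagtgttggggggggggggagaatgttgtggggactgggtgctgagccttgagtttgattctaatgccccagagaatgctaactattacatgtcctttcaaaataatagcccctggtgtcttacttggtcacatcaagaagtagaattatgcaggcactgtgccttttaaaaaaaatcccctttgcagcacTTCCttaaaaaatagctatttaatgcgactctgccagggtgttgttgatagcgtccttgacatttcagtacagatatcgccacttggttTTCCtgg
The window held 2 such cores, both on the opposite strand (TTCC as written). The core is common, and was present in 96.0% of 32851 windows of this length and in all 12 windows of the 7 factors that had one in the table. The longer PU box GAGGAAGT, which contains the core, was in none of those 12 windows, against 3.2% of all windows.

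Spi1 had the largest average difference of the 9 genes and also the widest spread, and on the main scale 1 wild-type mouse set both. The Spi1 probe had levels of -1.34, -1.31 and -1.01 in knockout mice 1, 2 and 3, against -1.27, -1.51 and 1.03 in wild-type mice 1, 2 and 3. Wild-type mouse 3 stood above the other 5 mice, while wild-type mice 1 and 2 lay below knockout mouse 3. The means were -1.22 ± 0.18 in the knockout and -0.58 ± 1.40 in wild type (SD, n = 3 each), and the difference was -0.64 ± 0.70 (SE) with a 95% interval of -2.23 to 0.96. Without wild-type mouse 3 the difference was 0.17, and without both mice that share the tag it was 0.06. Within array columns 1 and 2 it was -0.07 and 0.20, and within column 3 it was -2.04. Before scaling, the Spi1 signal in column 3 was 1596.5 in the knockout and 1780.2 in the wild-type mouse. The signal of 1780.2 was the highest of the 6 arrays. The 75th percentiles of the 2 arrays in column 3 were 3209.4 and 869.7, and the part of the scaling in that gap was not tested.

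IRF8, which binds composite elements with PU.1 and is best known for guiding monocytes and dendritic cells, was close to equal in array column 1 and lower in the knockout in the other two. Levels of Irf8 were 6.59, 6.69 and 6.22 in the knockout mice and 6.55, 7.37 and 6.57 in the wild-type mice. Wild-type mouse 2 was the highest and knockout mouse 3 the lowest, and the remaining 4 mice lay between 6.55 and 6.69. The average was 6.50 ± 0.25 in the knockout and 6.83 ± 0.47 in wild type, which gave -0.33 ± 0.45 (SE) with a 95% interval of -1.36 to 0.71, and 0.008 after quantile normalization.

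Maf, the large Maf factor that restrains macrophage self-renewal, varied within each genotype by more than it differed between them. Its probe read 4.81, 4.62 and 6.01 in knockout mice 1, 2 and 3 and 4.78, 6.01 and 5.56 in wild-type mice 1, 2 and 3. Knockout mouse 3 and wild-type mouse 2 had the highest levels, and the column differences pointed both ways, at 0.03, -1.39 and 0.45. The means of 5.15 ± 0.75 in the knockout and 5.45 ± 0.62 in wild type differed by -0.30 ± 0.56 (SE), with a 95% interval of -1.59 to 0.98, and by 0.03 after quantile normalization.

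Nr1h3, which encodes the oxysterol receptor LXRα, was read by 2 probes that gave nearly the same difference. The brighter probe had levels of 5.75, 6.38 and 5.82 in the knockout mice and of 6.02, 6.80 and 6.64 in the wild-type mice. The second had levels of 4.52, 5.32 and 4.88 in the knockout mice and of 4.87, 5.79 and 5.58 in the wild-type mice. On both probes wild-type mice 2 and 3 lay above all knockout mice and wild-type mouse 1 lay inside the knockout range. The brighter probe averaged 5.98 ± 0.34 in the knockout and 6.49 ± 0.41 in wild type, a difference of -0.50 ± 0.45 (95% interval -1.54 to 0.54), and the second probe differed by -0.50 ± 0.47 (95% interval -1.59 to 0.58). The gap between the probes on an array stayed within 0.938 to 1.231 log2 units. Within array columns 1, 2 and 3 the brighter probe differed by -0.27, -0.42 and -0.82, and the second by -0.35, -0.47 and -0.69, and neither sign turned in any alternative tried.

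Rxra, the shared partner of LXRα and PPARγ, was the gene whose genotypes did not overlap on the main scale. Its brighter probe read -1.31, -0.81 and -0.59 in knockout mice 1, 2 and 3 and -0.50, -0.07 and -0.28 in wild-type mice 1, 2 and 3. Every knockout mouse lay below every wild-type mouse, by as little as 0.09 between knockout mouse 3 and wild-type mouse 1. The means were -0.90 ± 0.37 in the knockout and -0.29 ± 0.22 in wild type (SD, n = 3 each), and the difference of -0.62 ± 0.43 (SE, 95% interval -1.61 to 0.38) had a limma unadjusted p of 0.193, the smallest among the 11 probes. The column differences were -0.80, -0.73 and -0.31. After median centring or quantile normalization the knockout mean was still the lower, and the genotypes overlapped.

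The second Rxra probe was dimmer, well above background on 5 of the 6 arrays, and did not repeat the separation. It read -2.13, -2.45 and -1.72 in the knockout mice and -1.58, -3.11 and -1.06 in the wild-type mice. Wild-type mouse 2 was lowest on this probe and highest on the other, and the gap between the probes was 3.042 there, against 0.777 to 1.647 on the other 5 arrays. The second probe differed by -0.19 ± 0.61 (SE, 95% interval -1.58 to 1.20), and by 0.10 with normexp background correction.

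One of the RefSeq windows of Rxra is shown with the nuclear receptor core AGGTCA on either strand in capitals, since RXRα, LXRα and PPARγ bind repeats of that core (RefSeq, GRCm38.p6, chr2:27709042-27709341, plus strand, written 5′ to 3′).
Rxra: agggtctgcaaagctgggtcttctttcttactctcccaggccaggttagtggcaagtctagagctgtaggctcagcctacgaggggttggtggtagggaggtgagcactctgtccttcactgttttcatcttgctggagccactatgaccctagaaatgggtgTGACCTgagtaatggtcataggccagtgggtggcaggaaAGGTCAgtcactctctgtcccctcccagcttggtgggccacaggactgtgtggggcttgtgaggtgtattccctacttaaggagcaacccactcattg
It held 2 cores, which begin at position -87 from the start of transcription on the opposite strand and at -48 on the same strand. AGGTCA was found in 3 of the 12 windows, this window of Rxra and others of Pparg, and in 16.3% of all windows. The other Rxra window and a further Pparg window held no such core.

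Pparg, a lipid-handling receptor with a known part in splenic red pulp and lung macrophages, differed little between the genotypes. Its probe, printed as 10 spots on each array, read 4.23, 4.57 and 4.87 in knockout mice 1, 2 and 3, against 4.02, 5.23 and 4.65 in wild-type mice 1, 2 and 3. The lowest and the highest mouse were both wild type, with all knockout mice between them. Spots within an array had an SD of 0.0257 to 0.0523 log2 units, far below the spread between mice. Pparg averaged 4.56 ± 0.32 in the knockout and 4.63 ± 0.60 in wild type and differed by -0.08 ± 0.48 (SE), with a 95% interval of -1.19 to 1.03. The sign turned to 0.05 after median centring and to 0.08 after quantile normalization.
The first RefSeq window of Pparg is shown beside that of Rxra for the same core (AGGTCA in capitals, both strands searched, RefSeq, GRCm38.p6, chr6:115360894-115361193, plus strand, written 5′ to 3′).
Pparg: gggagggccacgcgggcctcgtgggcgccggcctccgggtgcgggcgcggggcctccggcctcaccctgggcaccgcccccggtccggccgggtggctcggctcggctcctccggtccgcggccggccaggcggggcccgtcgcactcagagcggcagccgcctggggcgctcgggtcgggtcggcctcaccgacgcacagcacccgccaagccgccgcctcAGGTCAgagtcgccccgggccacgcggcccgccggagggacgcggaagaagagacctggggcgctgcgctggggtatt
The window held 1 core, which begins at position -28 from the start of transcription. Another Pparg window held 1 core, at -9.

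The motif of the deleted factor was searched in the same windows. Spi1 and Maf had no window, so the search covers the other 7 factors only, and the windows of Nr1h3 overlap each other. The BACH site TGANTCAGC, part of a Maf recognition element, was in 1.19% of all windows and the AP-1 core TGANTCA, which lies inside it, in 7.81%, and none of the 12 windows held either. The composite GGAANNGAA of ETS and IRF factors, which holds the ETS core, was in 8.24% of all windows and the MiT site CACGTG in 7.15%, and neither was in the 12. The C/EBP site TTGCNNAA was in 1 of the 12, a Pparg window, and in 10.8% of all windows. Each motif was searched on both strands, and a match or its absence describes the letters of the window only.

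Cebpb, which encodes C/EBPβ, had the smallest average difference, over a wide spread that both genotypes shared. Its levels were 4.51, 6.33 and 5.33 in the knockout mice and 5.0, 6.23 and 5.04 in the wild-type mice. In both genotypes mouse 2 stood above the others, and the ranges of the genotypes overlapped almost throughout. The means of 5.39 ± 0.92 in the knockout and 5.42 ± 0.70 in wild type differed by -0.03 ± 0.61 (SE), with a 95% interval of -1.43 to 1.37. The sign turned to 0.09 after median centring, 0.15 after quantile normalization and 0.01 with normexp background correction.

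Tfec, which is known to act on genes of alternatively activated macrophages, depended on 1 wild-type mouse. Its levels were 2.34, 2.35 and 2.64 in the knockout mice and 2.10, 3.68 and 2.60 in the wild-type mice. Wild-type mouse 2 stood above the other 5 mice, which lay between 2.10 and 2.64. The difference was -0.35 ± 0.52 (SE, 95% interval -1.54 to 0.84) between means of 2.44 ± 0.17 in the knockout and 2.79 ± 0.81 in wild type, and without wild-type mouse 2 it was 0.09.

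**Figure D2:**
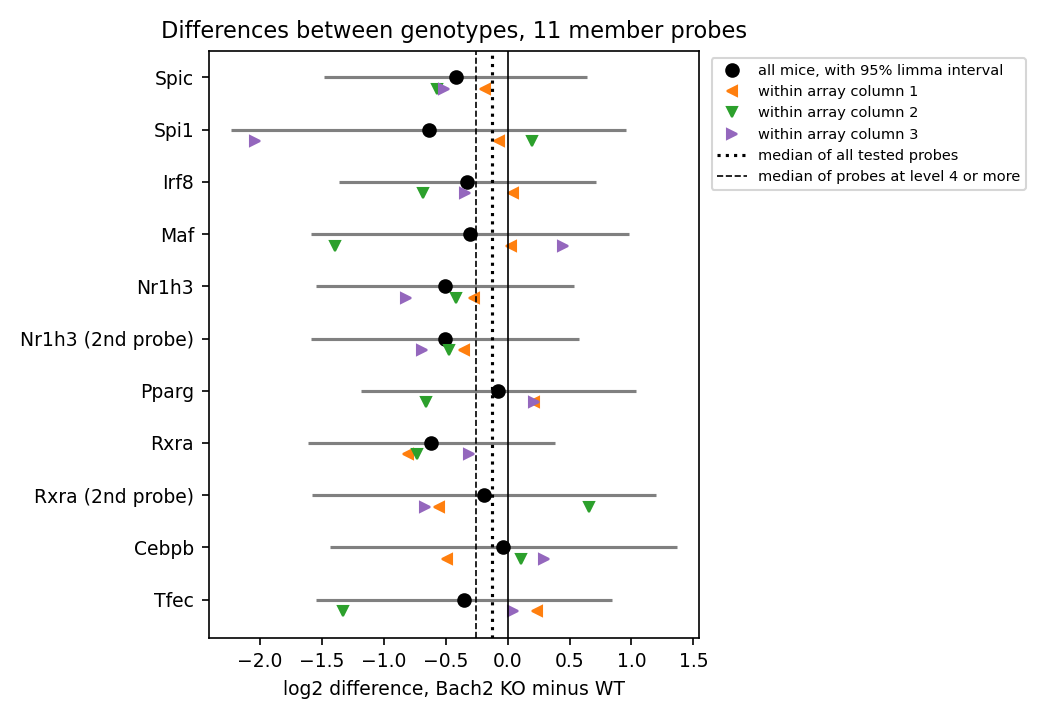
Log2 difference of each probe, Bach2 knockout minus wild type (horizontal axis), with the 95% limma interval (line) and the difference within each of the 3 array columns (coloured triangles); vertical lines mark 0 and the medians of all tested probes and of those at level 4 or more. Every interval crosses 0, and after quantile normalization the averages of Irf8, Maf, Pparg and Cebpb lie above 0.

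The columns did not move alike. In array column 1 the level of 5 of the 9 genes lay below 0 with a median difference of -0.07, in column 2 it was 7 genes with a median of -0.66, and in column 3 it was 5 genes with a median of -0.31. The median over all tested probes was -0.13, -0.11 and -0.04 in columns 1, 2 and 3. Over probes at level 4 or more it was -0.08, -0.10 and -0.47. Spic, Nr1h3 and Rxra, which were 3 of the 9, lay below 0 in each column, a count that was not made over all probes. The 95% intervals reached from 1.0 to 1.59 log2 units to either side of the difference, so differences smaller than these could not be told from 0 with 3 mice a genotype. An exact two-sided permutation test of 3 against 3 mice cannot give a p below 0.1.

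Most of the genes, but not all, were highest in the same mouse. After each gene was centred on its mean over the 6 arrays, the 9 genes averaged -0.47, -0.08 and 0.01 in knockout mice 1, 2 and 3, against -0.33, 0.52 and 0.35 in wild-type mice 1, 2 and 3. Wild-type mouse 2 had the highest level for 6 genes (Irf8, Maf, Nr1h3, Pparg, Rxra and Tfec), wild-type mouse 3 for Spic and Spi1, and knockout mouse 2 for Cebpb. Knockout mouse 1 had the lowest level for 4 genes (Spic, Nr1h3, Rxra and Cebpb). Wild-type mouse 1 was the lowest for Pparg and Tfec, wild-type mouse 2 for Spi1, knockout mouse 2 for Maf and knockout mouse 3 for Irf8. The mean of wild-type mouse 1 thus lay below those of knockout mice 2 and 3.

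**Figure D3:**
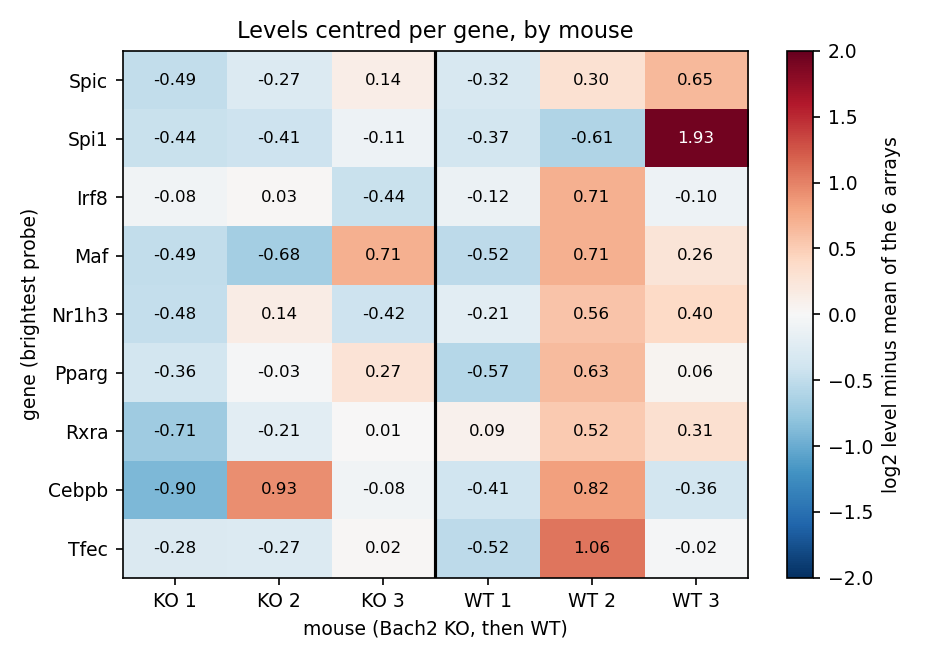
Log2 level of each gene, from its brightest probe, minus its mean over the 6 arrays, by mouse (columns, Bach2 knockout left of wild type; colour and number give the value). The highest cell is Spi1 in wild-type mouse 3, at 1.93, and wild-type mouse 2 holds the highest value of 6 of the 9 genes.

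Among the factors, the profiles over the 6 arrays lay closest for Pparg and Tfec, with a root mean square difference of 0.233 log2 units between their centred levels. Spic and Rxra followed at 0.256, Irf8 and Nr1h3 at 0.276, and Nr1h3 and Rxra at 0.278. These distances describe 6 arrays of 1 slide, scaled in the same way, whose 75th percentiles ran from 869.7 to 3209.4. Over 9779 named genes well above background on all arrays, the profile most like that of Spic was found for Nisch and Lhpp (0.081 each), that of Spi1 for Hdac6 (0.142) and Khsrp (0.192), and that of Irf8 for Nsa2 (0.042) and Coprs (0.05). Maf was closest to Napg (0.082) and Phtf1 (0.099), and Nr1h3 to Fbl (0.067) and Csrp1 (0.07). Pparg was closest to Susd6 (0.048) and Gm5150 (0.055), Rxra to Senp3 (0.058) and Tprn (0.086), Cebpb to Tcf7l2 (0.095) and Mtrf1 (0.1), and Tfec to Sptssa (0.096) and Dhx58 (0.101).

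In the genome, 4 of the 9 genes (Spi1, Nr1h3, Rxra and Cebpb) lie on chromosome 2, Pparg and Tfec lie on chromosome 6, Irf8 and Maf on chromosome 8 and Spic on chromosome 10. Spi1 and Nr1h3 are near neighbours with 2 coding genes annotated between them, and their largest column differences both fell in array column 3. In that column the 75th percentiles were 3209.4 in the knockout and 869.7 in the wild-type mouse.

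The families of these factors gave no gene that passed the test. Of 12 tested ETS relatives of Spic and Spi1, 8 lay above and 4 below wild type in the knockout, with a median of 0.11, against -0.09 over 11736 named genes. The ETS relatives with the smallest p were Ets1, a lymphoid ETS factor (0.64 ± 0.53, SE), Elk1, a serum response partner (-0.54 ± 0.53), and Gabpa (0.44 ± 0.59). Within array columns 1, 2 and 3 Elk1 differed by 0.15, 0.14 and -1.9, and Gabpa by -0.09, -0.08 and 1.5. Without knockout mouse 3 the count was 2 above and 10 below, and without both mice that share the tag 4 above and 8 below. Of 8 other interferon regulatory factors, 3 lay above and 5 below, with Irf3 at -0.36 ± 0.44, Irf4 at 0.16 ± 0.50 and Irf7 at -0.27 ± 0.52, and 6 lay above after median centring and 5 without wild-type mouse 2.

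All 4 tested relatives of Maf lay below wild type on the main scale, as did 61.8% of all tested probes. After median centring, without wild-type mouse 1 or without knockout mouse 3, 2 of the 4 relatives lay above wild type. Among the small Maf proteins, the partners of Bach2, Maff differed by -0.86 ± 0.73 (SE) and was above background in 2 of 3 knockout mice, and Mafg differed by -0.10 ± 0.60.

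Of 14 other nuclear receptors, 6 lay above and 8 below, with a median of -0.16, which was 0.05 without wild-type mouse 3 and -0.43 without knockout mouse 3. Rxrb, the paralog of Rxra, had levels of 3.60, 4.24 and 4.14 in the knockout mice and of 4.29, 4.91 and 4.41 in the wild-type mice. These did not overlap on the main scale, as in 2.09% of all tested probes in that direction, and differed by -0.54 ± 0.44 (SE). Rara, a retinoic acid receptor that also pairs with RXR, differed by -1.11 ± 0.54, and Nr1d1, a clock repressor measured above background in 2 knockout mice and 1 wild-type mouse, by 1.46 ± 0.78. Of 6 genes listed as other C/EBP factors, among which Cebpz stands by its name only, 1 lay above and 5 below. Cebpe differed by 0.49 ± 0.84, Cebpz by -0.32 ± 0.51 and Ddit3, the stress-induced member, by -0.59 ± 0.65. Without wild-type mouse 2 the count was 4 above and 2 below, and the median 0.08 in place of -0.26. The other MiT factors were Mitf at 0.21 ± 0.57, Tfe3 at -0.20 ± 0.51 and the lysosomal regulator Tfeb at -0.41 ± 0.52, of which 2 lay above without knockout mouse 1 and none without wild-type mouse 1.

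Of 17 other regulators of macrophages and related blood cells, 10 lay above and 7 below wild type, with a median of 0.11. Id3, which inhibits helix-loop-helix factors, read 4.38, 2.04 and 2.24 in the knockout mice and 2.03, 1.76 and 1.95 in the wild-type mice. These levels did not overlap, by 0.01 between the nearest mice, as in 1.2% of all tested probes in that direction, and differed by 0.97 ± 0.66 (SE). Myb, a progenitor factor, differed by 0.86 ± 0.68. Fewer lay above than below without wild-type mouse 1 (6 of 17), without knockout mouse 3 (5 of 17) and without both mice that share the tag (4 of 17).

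The genes known to be driven by these factors were counted in the same way, and again none passed the test. Over all tested probes, 61.8% lay below 0 in the knockout. For probes at level 4 or more this share was 83.6%, and 51.8% after quantile normalization. Of 19 tested PU.1 targets, 18 lay below wild type, with a median of -0.31, and 13 lay below after quantile normalization, with a median of -0.11. The median was -0.62 without wild-type mouse 1, and without both mice that share the tag it was -0.15, with 13 below. The CSF-1 receptor gene Csf1r read 7.41, 7.64 and 6.81 in the knockout mice and 7.39, 7.70 and 8.53 in the wild-type mice. The genotypes overlapped, and the average difference was -0.59 ± 0.49 (SE). Within array columns 1 and 2 Csf1r differed by 0.01 and -0.06, and within column 3 by -1.72. Before scaling, the Csf1r signal was 359389.6 in knockout mouse 3 and 321647.6 in wild-type mouse 3. The 75th percentiles of these 2 arrays were 3209.4 and 869.7, and the part of the scaling in the column 3 gap was not tested. Itgam, the integrin chain CD11b, differed by -0.93 ± 0.69, and Fcer1g, the shared Fc receptor chain, by -0.63 ± 0.51. By array column, Itgam differed by 0.15, -0.13 and -2.81, and Fcer1g by -0.01, -0.22 and -1.65.

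Among 9 tested genes linked to Spic in red pulp macrophages, which serve iron export and red cell uptake, 8 lay below wild type with a median of -0.59. Of all tested probes 61.8% lay below 0, and of those at level 4 or more 83.6%. The list shares 5 genes (Vcam1, Slc40a1, Hmox1, Cd163 and Treml4) with the marker list of red pulp macrophages, so the lists are not separate evidence. Slc40a1, the iron exporter ferroportin, read 7.40, 7.33 and 6.96 in the knockout mice and 7.42, 7.99 and 8.50 in the wild-type mice. On the main scale the genotypes did not overlap, as in 2.09% of all tested probes in that direction. Knockout mouse 1 and wild-type mouse 1 lay 0.02 apart, and the difference was -0.74 ± 0.46 (SE). Before scaling, the signal was 398305.7 in knockout mouse 3, above the 299351.5 and 315181.5 of wild-type mice 1 and 3. Cd163, the hemoglobin-haptoglobin receptor, differed by -1.30 ± 0.73 with 1 of 3 knockout mice above background, and Trf, transferrin, by -0.70 ± 0.52. Within array columns 1, 2 and 3 Trf differed by -0.04, -0.12 and -1.95. Without both mice that share the tag, 7 of the 9 lay below and the median was -0.09. It was -0.17 after quantile normalization, -0.29 without wild-type mouse 3 and -0.39 without knockout mouse 3.

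All 9 tested Maf targets lay below wild type, with a median of -0.82, and 6 of the 9 did so after quantile normalization with a median of -0.32. Il10, also listed, was well above background on 1 of the 6 arrays and was not tested, and lay above wild type by 1.03. The share below 0 was 61.8% over all tested probes and 83.6% over those at level 4 or more. Folr2, a folate receptor of resident macrophages, read -1.78, -2.73 and -2.15 in the knockout mice and -1.48, -0.56 and -0.74 in the wild-type mice. On the main scale the genotypes did not overlap, as in 2.09% of all tested probes in that direction. Above background were 2 of 3 knockout mice, and the difference of -1.29 ± 0.48 (SE) had a limma unadjusted p of 0.0278 and an adjusted p of 0.9998. Gas6, a bridging ligand for the uptake of dying cells, read 1.54, 2.27 and 2.39 in the knockout mice and 2.25, 3.88 and 3.45 in the wild-type mice, overlapping only through wild-type mouse 1, and differed by -1.13 ± 0.56. F13a1, coagulation factor XIII A, differed by -1.65 ± 0.91. Without both mice that share the tag, 7 of the 9 lay below, with a median of -0.83. The list shares Cd163 and Mrc1 with the marker list of red pulp macrophages, as the PU.1 list shares Csf1r and the LXR list Cd5l and Mertk.

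Targets of the lipid-sensing receptors lay on both sides. Of 13 LXR targets, 6 lay above and 7 below wild type, and 9 above after quantile normalization, 3 without wild-type mouse 1 and 2 without knockout mouse 3. Scd1, a fatty acid desaturase, differed by 0.64 ± 0.53 (SE) and Pltp, a phospholipid transfer protein, by -1.34 ± 0.82, and the third by p was Nr1h3 itself. By array column, Pltp differed by -0.73, 0.01 and -3.3. Of 11 PPARγ targets, 4 lay above and 7 below, with Angptl4 at -0.66 ± 0.51, the fatty acid binding protein Fabp4 at -0.62 ± 0.63 and the carnitine transferase Cpt1a at -0.49 ± 0.50. Without wild-type mouse 2, 7 lay above and 4 below, and the median was 0.02 in place of -0.18.

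Of 9 IRF8 targets, 2 lay above and 7 below wild type, and 5 above after quantile normalization. The median of -0.35 was -0.10 without wild-type mouse 2 and -0.62 without wild-type mouse 1. Cd74 and H2-Ab1, of the class II antigen presentation pathway, differed by -0.55 ± 0.59 and -0.53 ± 0.53 (SE), and the dendritic cell chemokine receptor gene Xcr1, above background in 2 of 3 wild-type mice, by 0.71 ± 0.73. Within array columns 1, 2 and 3 Cd74 differed by 0.25, -0.26 and -1.64, and H2-Ab1 by 0.23, 0.09 and -1.91. Of 6 C/EBPβ targets 3 lay on each side, and the median was -0.43 without wild-type mouse 1 and 0.6 without wild-type mouse 2. The chemokine genes Ccl3 and Ccl2 differed by 1.98 ± 1.19 and 1.61 ± 1.02, each above background in 2 of 3 wild-type mice, and Tnf, above background in 1 of 3 knockout mice and 2 of 3 wild-type mice, by -1.11 ± 1.0.

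**Figure D4:**
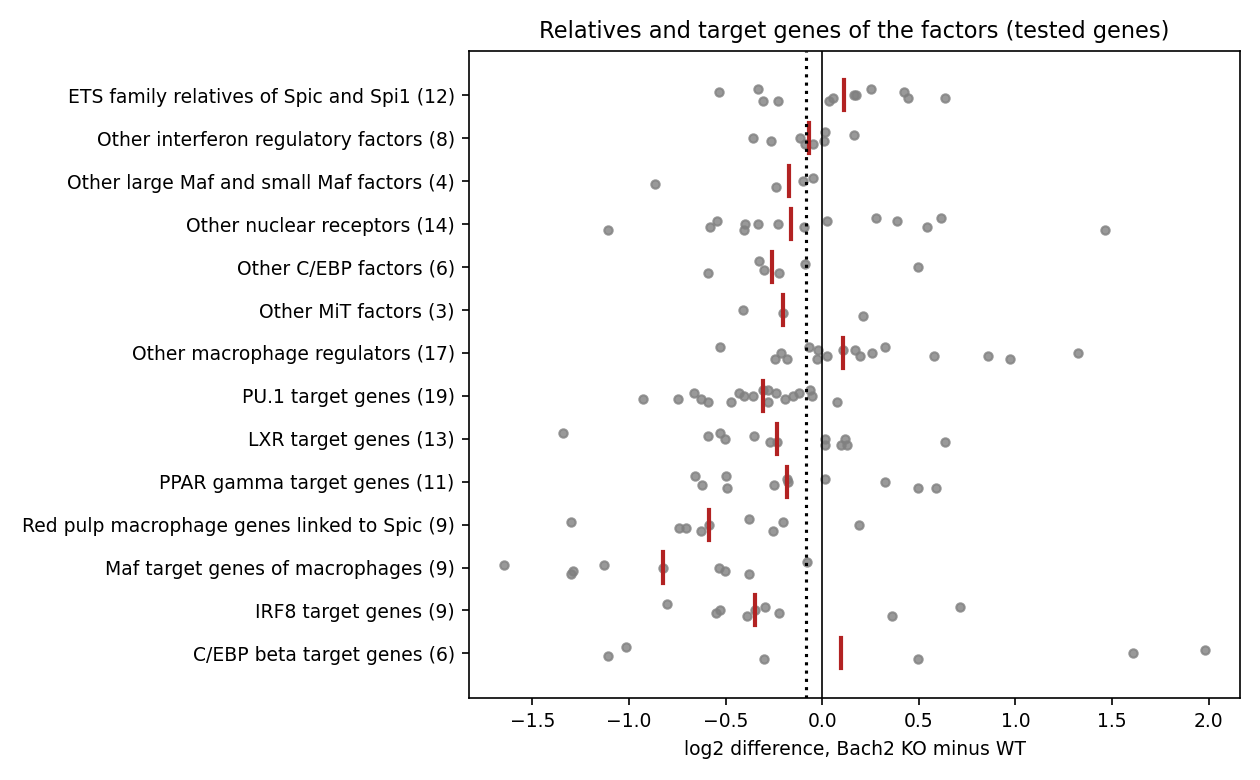
Log2 difference of each tested relative and target gene, Bach2 knockout minus wild type (horizontal axis), by list (rows, with the number of tested genes). Red bars are list medians and the dotted line the median of all named genes; Maf targets have the lowest median, at -0.82 and at -0.32 after quantile normalization, and no gene passed the adjusted test.

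The cell content of the sorted samples was read from marker lists on the same arrays. Of 12 markers of red pulp macrophages 11 had a probe, with 11 of 11 below wild type in the knockout on the main scale and 9 of 11 after quantile normalization, where the median was -0.04 in place of -0.47. That median was -0.26 without wild-type mouse 3 and -0.22 without both mice that share the tag. Over all tested probes 61.8% lay below 0, and 83.6% of those at level 4 or more. The summed signal of the markers ran from 852.63 to 998.34 times the 75th percentile of the array in the knockout. In wild-type mice 1, 2 and 3 it was 983.06, 1281.7 and 1940.99, and mouse 3 had the lowest 75th percentile of the 6 arrays. Of 14 T and NK cell markers, 13 lay above wild type with a median of 0.99, and the sum ran from 103.99 to 348.24 in the knockout and from 45.53 to 68.2 in wild type. Of the 14, 6 lay at an unadjusted p under 0.05 in limma, against 0.69% of all probes in the higher direction, and 2 did so without wild-type mouse 2, wild-type mouse 3, knockout mouse 2 or both mice that share the tag. Their median was 0.49 without wild-type mouse 3 and 0.55 without knockout mouse 2. Of 9 neutrophil markers 8 lay above, with sums of 87.66 to 372.89 in the knockout and 52.2 to 234.88 in wild type, and the median of 1.15 was 0.38 without knockout mouse 2. Of 10 B cell markers 7 lay above (105.04 to 142.05 in the knockout, 73.69 to 156.6 in wild type), of 8 monocyte markers 5 (184.45 to 302.72 in the knockout, 118.1 to 246.57 in wild type), of 10 dendritic cell markers 6 (187.62 to 339.35 in the knockout, 222.71 to 371.1 in wild type) and of 8 erythroid markers 7 (254.35 to 934.55 in the knockout, 382.98 to 950.51 in wild type). These counts turned when 1 mouse was left out. B cell markers were 2 above and 8 below without wild-type mouse 1 and 3 above and 7 below without knockout mouse 3, and dendritic cell markers were 3 above and 7 below without wild-type mouse 1 and 4 above and 6 below without wild-type mouse 3 or knockout mouse 3. Erythroid markers were 3 above and 5 below without wild-type mouse 2 or knockout mouse 1, whereas monocyte markers kept at least 5 above. Of the marginal zone macrophage markers, Marco lay below wild type (-1.60 ± 0.47, SE, limma unadjusted p = 0.0085, adjusted p = 0.9998) and set the summed signal of 17.31 to 32.07 in the knockout and 55.17 to 81.23 in wild type, while Siglec1 differed by -0.03 ± 0.59, both named after their values were seen. No list had a marker that was below background on all 6 arrays. The part of these markers in the levels of the 9 factors was not tested, and in such bulk samples fewer cells of a type and less RNA per cell cannot be told apart.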

How the data were processed

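RNA from sorted red pulp macrophages of 6 mice was amplified and hybridised to Agilent mouse arrays with 1 dye, as the labels' protocols say. The authors deposited spot intensity values, which per the file headers are background subtracted and detrended within each array but not normalized between arrays. The submitters' processing notes give Agilent Feature Extraction 9.1, and the file headers give 10.7.3.1. The flags for outlier and well-above-background spots are taken as deposited. The authors' deposited table of log2 values holds 279 probes and 0 of the 11, and was not used.

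Of 59305 non-control spots (55681 probes) on each array, outlier spots (141 to 283) were set to missing, spots of a probe were averaged, and each array's 75th percentile was subtracted on the log2 scale. No spot was saturated. Probes well above background on at least 3 of 6 arrays, with a value on all 6, were tested with lmFit and eBayes (limma 3.58.1, R 4.3.3) and Benjamini-Hochberg adjustment at 0.05. The number of arrays limits the precision. Accessions were named through a RefSeq table of GRCm38.p6 (26413 probes named, 29268 not), used for names, neighbours and promoter windows, since the array design refers to an older build. Replicates are numbered in the order of the records, which coincides with the array columns and pairs no mice by itself. Alternatives were median centring, quantile normalization, normexp, the filter, the brightest probe, the column as a block, eBayes with trend and robust options, and leaving out mice. The mean signal is not in the files used here, so normexp (offset 50) used the median signal. The fit was tested on simulated data.

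The genes and lists were chosen with earlier results of these data known. Named besides the 9 genes and Bach2 are the 3 genes with the smallest p in each list of relatives or targets (no such genes of the marker lists) and the 2 genes most like each factor, of which 2 list genes are not reported here.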

Additional observations from a re-analysis of the deposited data

How the results depend on the processing

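No probe passed an adjusted p of 0.05 in limma in any alternative, with 72 to 572 higher and 58 to 358 lower probes at an unadjusted p under 0.05. Median centring split these into 229 higher and 67 lower, against 159 and 148 on the main scale, and the array column as a replicate block gave 427 higher and 295 lower and changed no call. Of 162 alternative values over the 11 probes, 145 kept their sign and 17 turned, and the lowest adjusted p was 0.996. The signs of Spic, both Nr1h3 probes and the brighter Rxra probe, 4 in all, never turned.

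After quantile normalization Irf8 was 0.008, Maf 0.031, Pparg 0.081 and Cebpb 0.155. After median centring Pparg was 0.049 and Cebpb 0.092. With normexp, Cebpb was 0.011 and the second Rxra probe 0.102. Without wild-type mouse 2, Pparg was 0.22, Cebpb 0.368 and Tfec 0.095, and without knockout mouse 1, Pparg was 0.086 and Cebpb 0.409. Without wild-type mouse 3, Spi1 was 0.169 and the second Rxra probe 0.243, and without both mice that share a tag, 0.064 and 0.053. With 1 mouse left out at a time, the lowest values of the probes whose sign turned there were -1.101 for Spi1, -0.382 for Pparg, -0.786 for the second Rxra probe, -0.505 for Cebpb and -0.698 for Tfec.

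The number of probes whose genotypes did not overlap was 0 after median centring and 0 after quantile normalization. It was 1 to 4 with 1 mouse left out: 4 without wild-type mouse 1 (Spic, both Nr1h3 probes and the brighter Rxra probe, where 9.05% of all tested probes did not overlap in that direction), 2 without wild-type mouse 2 (5.69%) and 2 without knockout mouse 2 (11%). The median over the 9 genes ran from -0.68 without wild-type mouse 1 to -0.05 without wild-type mouse 2, and was -0.07 after quantile normalization. The cause of these changes was not tested. Background limits the dimmer probes, the second of Rxra above all.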
